A study of Mus musculus with 2 samples.

Results

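The renin-angiotensin system was described here by 8 genes chosen by symbol out of the 32285 genes counted in the files, namely Ren1, Agt, Ace, Agtr1a, Agtr1b, Enpep, Mme and Atp6ap2. Single-cell RNA sequencing had been performed on kidneys of male C57BL/6 mice, 9 weeks old, harvested 24 h after bilateral renal ischemia-reperfusion injury. The control library came from 1 mouse given saline and the JPI-289 library from 1 mouse given 100 mg/kg of JPI-289, an inhibitor of poly(ADP-ribose) polymerase, into the peritoneum just before reperfusion. Both kidneys had undergone ischemia, and no uninjured kidney was analysed here. With 1 library per condition there was no test between the conditions, and every ratio below compares these 2 libraries only.

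Renin cleaves angiotensinogen to angiotensin I, and angiotensin-converting enzyme cleaves this to angiotensin II, which raises vascular tone and sodium reabsorption through the type 1 receptor. In the kidney, renin is made by juxtaglomerular cells of the afferent arteriole, which belong to the mural lineage, while the proximal tubule makes angiotensinogen. Aminopeptidase A and neprilysin are membrane peptidases that break angiotensins down or turn them into other active peptides.

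The libraries gave 3750 control cells and 5040 JPI-289 cells, with a median of 2053.5 and 1866 unique molecular identifiers (UMIs) per cell. Cell classes were named from marker genes without any of the 8 genes, and carry the ending "-like". A level is given in CPM, the UMIs of a gene per 1000000 UMIs of all genes in the cells of that class and library. Its range in parentheses is an exact 95% Poisson interval. A log2 ratio is JPI-289 over control after 0.5 UMIs were added to each sum, with an exact 95% binomial interval. All these ranges reflect counting error alone and say nothing of how mice differ. Where 2 values of a gene stand together, the first is the control value and the second the JPI-289 value. The kit reads the 5′ ends of transcripts and the counts are not per length, so levels are compared between classes and libraries but not between genes. Every cluster of proximal tubule (PT)-like cells came to at least 90% from 1 library. Endothelial cell (EC)-like clusters were uneven too. Cluster 12 had 201 control and 33 JPI-289 cells and cluster 17 had 1 and 183, whereas cluster 4 had 295 and 351. The part of this mix in the EC-like ratios below was not tested. Further, 23 cell barcodes occurred in both libraries where chance gives 25.6, and the doublet caller marked 3 of 8790 cells, so doublets remain.

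The sequence just before the transcription start is shown for 4 of the genes, because they span the narrowest and the widest patterns described below: Ren1, found almost only in mural-like cells, Agt, mostly in PT-like cells, Agtr1b, nearly absent, and Atp6ap2, present in every large class. The 30 bases run from 40 to 11 bases before the start given by RefSeq on GRCm38.p6, on the gene's own strand. Capitals mark TATAAA, or ATTGG, which is CCAAT read on the opposite strand.
Ren1: tacatggtgtgTATAAAagaaggctcaggg
Agt: accccttgagTATAAAtaagcctgcttggc
Agtr1b: cctttgctgTATAAAttgtagctgtctccg
Atp6ap2: cgctcgtgtagcggcgtagttggcgATTGG
They lie at chr1:133350634-133350663 (+), chr8:124569717-124569746 (-), chr3:20367188-20367217 (-) and chrX:12587719-12587748 (+). The Ren1 bases are counted as part of the first exon by GENCODE vM21, which starts that gene further upstream. The first T of TATAAA lies 29, 30 and 31 bases before the start of Ren1, Agt and Agtr1b. Over the 250 bases before the start, TATAAA occurs on the gene's strand in 7.59% of all 32851 promoters and on either strand in 12.4%. Atp6ap2 has none, but 3 matches to CCAAT on either strand, a motif held by 33.8% of promoters, and 20 CG steps, against 1 in Ren1, 0 in Agt and a median of 6 over all promoters. A member not shown reached further, with 27 CG steps in an Mme entry, and no link of sequence to pattern was tested. For Atp6ap2 and Agt, at the 2 ends among these 4 genes, the whole 250 bases follow. Capitals are as above and also mark CCAAT on the gene's own strand.
Atp6ap2, chrX:12587509-12587758 (+): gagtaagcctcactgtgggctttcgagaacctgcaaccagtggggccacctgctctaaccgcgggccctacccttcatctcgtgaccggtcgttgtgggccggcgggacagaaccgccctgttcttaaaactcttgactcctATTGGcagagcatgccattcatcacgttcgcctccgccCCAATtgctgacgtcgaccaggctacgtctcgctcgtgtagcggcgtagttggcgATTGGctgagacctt
Agt, chr8:124569707-124569956 (-): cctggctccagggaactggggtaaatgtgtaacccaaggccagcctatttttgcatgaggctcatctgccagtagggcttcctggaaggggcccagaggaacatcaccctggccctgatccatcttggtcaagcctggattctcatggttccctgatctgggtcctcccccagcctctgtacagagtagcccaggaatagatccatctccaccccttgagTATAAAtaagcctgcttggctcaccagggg

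Ren1 encodes renin, the protease that starts the cascade (ENSMUSG00000070645, chromosome 1, 133350510 to 133360325, GRCm38). It had 7213 and 2753 UMIs in all cells. Mural-like cells, the pericyte, smooth muscle and mesangial group, held 91.5% and 93.7% of these, although they were only 30 and 34 cells. Their Ren1 level was 42029 (41021 to 43055) and 22494 (21635 to 23380) CPM, a log2 ratio of -0.90 (-0.97 to -0.84). In both libraries renin RNA was therefore concentrated in the class that includes juxtaglomerular cells in the kidney.

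Within the mural-like class a handful of cells decided the level. The 3 cells with most Ren1 held 74.5% (control) and 74.2% (JPI-289) of all Ren1 UMIs of their library. In the control library these cells had 2415, 1770 and 1191 Ren1 UMIs, which was 35.2%, 39.6% and 38.5% of everything counted in them. In the JPI-289 library the top cells had 1173, 549 and 322, or 18.1%, 10.1% and 2.03% of their UMIs. Each of the 3 control cells thus exceeded every JPI-289 cell, both in UMIs and as a share of the cell. Cells of 1 library are not replicates of a condition, and the ratio depended on them: without the top cell of each library it was -1.10 (-1.19 to -1.01), and without the top 3 it was -0.48 (-0.63 to -0.33). Over all stroma-like cells, with fibroblast-like cells included, the ratio was -0.19 (-0.26 to -0.13), and it changed direction, to 0.10 (-0.047 to 0.24), without the top 3. Mural-like cells were 30 of 160 and 34 of 100 stroma-like cells, and the part of this mix was not tested. Counting each mural-like cell equally gave -1.71.

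The share of mural-like cells with any Ren1 UMI did not differ beyond counting error. It was 63.3% (43.9 to 80.1%) and 73.5% (55.6 to 87.1%), at median depths of 2910 and 1369.5 UMIs. With every cell thinned to 1000 UMIs, at a loss of 4 and 8 cells, it was 65.4% (44.3 to 82.8%) in both. Neutrophil-like cells, which should lack renin, had a Ren1 UMI in 4.59% and 1.07% of cells, at median depths of 1973 and 2035.5. Among mural-like cells with a Ren1 UMI the median was 30 and 4 UMIs. Cells with 20 or more Ren1 UMIs numbered 17 in the control library, 11 of them mural-like, and 12 in the JPI-289 library, 10 of them mural-like.

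Akr1b7, an aldo-keto reductase known as a marker of renin cells, was the gene most enriched in cells with at least 3 Ren1 UMIs. It had 722 UMIs in 81 such cells, which were set against 7149 other cells of the 10 classes that contain them. Next in this ranking were Kcnk3, Rbm24, Rasl10b and Cnn1, the last a smooth muscle calponin. Classes and libraries were pooled for it and not matched. Among cells with at least 3 Ren1 UMIs, 16 of 57 (control) and 16 of 24 (JPI-289) were mural-like. The ranking therefore does not separate Ren1 from cell class. In mural-like cells Akr1b7 had a ratio opposite in sign to that of Ren1. It had 108 and 610 UMIs, 688 and 5318 CPM, a log2 ratio of 2.95 (2.65 to 3.26). The 7 control cells with most Ren1 had 31, 16, 20, 16, 5, 7 and 5 Akr1b7 UMIs, and the 7 such JPI-289 cells had 181, 28, 157, 13, 95, 105 and 0. The JPI-289 cells reached further up but overlapped the control cells. Those with 181, 157, 105 and 95 UMIs held most of the 610, so the ratio rests on few cells. The ratio without these cells was not computed. The doublet scores of those 7 cells lay between percentiles 45.6 and 76.6 of their library for the control and between 87.5 and 96.8 for JPI-289, and the part of doublets in these values was not tested.

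**Figure D1:**
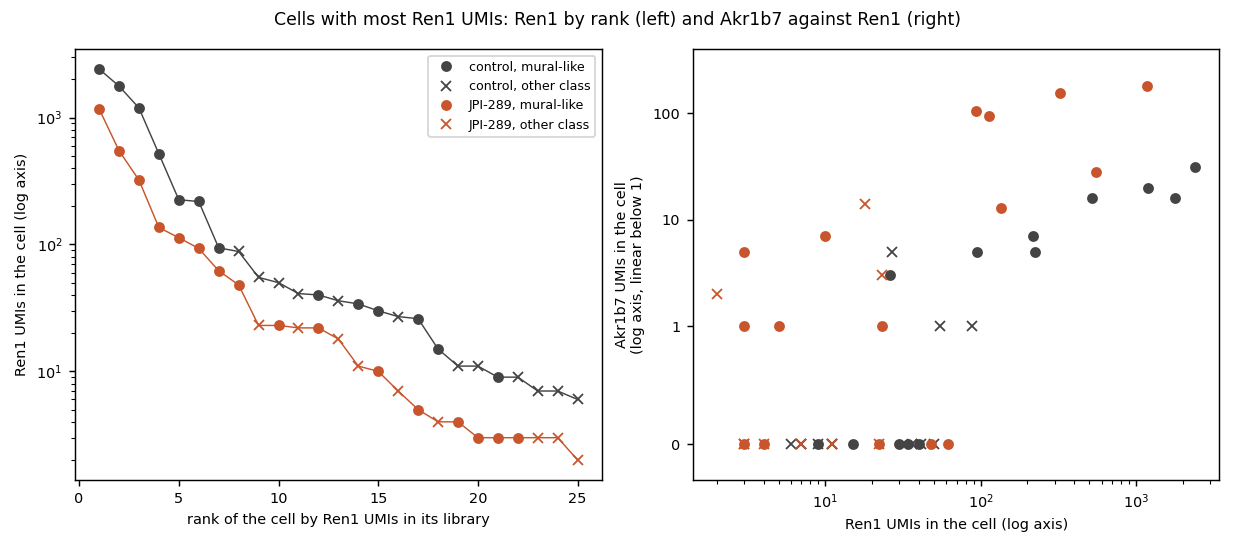
Ren1 UMIs of the 25 cells with most Ren1 in each library by rank (left, log axis), and their Akr1b7 UMIs against their Ren1 UMIs (right, both log axes, Akr1b7 linear below 1). Each point is 1 cell, circles are mural-like cells and crosses cells of other classes. The control curve starts at 2415 and the JPI-289 curve at 1173, while 4 JPI-289 cells lie above 90 Akr1b7 UMIs and no control cell lies above 31.

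Outside the stroma, Ren1 was low beside its mural-like level. In barcodes with under 100 UMIs, taken as free RNA that leaks between droplets, it stood at 172 (136 to 216) and 66.9 (42.4 to 100) CPM. These are levels within free RNA and not what it adds to a cell. Free RNA was estimated at 1.55% and 2.12% of the UMIs of PT-like cells, and its part in their Ren1 was not tested. PT-like cells had 34.2 and 3.68 CPM. Both values lay within the intervals of neutrophil-like cells, at 25.3 (12.6 to 45.2) and 4.33 (1.74 to 8.92). The PT-like log2 ratio of -3.19 is therefore not read as a change of PT cells. It was -2.15 without cells of 20 or more Ren1 UMIs, one of which had 88 of its 600 UMIs from Ren1. The same holds for 2 macrophage-like control cells with 50 and 36 Ren1 UMIs, at percentiles 99.5 and 98.6 of the doublet score. Without such cells the macrophage-like ratio moved from -5.85 to -1.55, and the EC-like one from -1.61 to -0.39. Summed mural markers of the EC-like cells were 281 and 76.5 CPM, none of the 8 at 0 in either library, and their part in the EC-like value was not tested. Over all barcodes, cells and free RNA together, Ren1 was 262 and 99.2 CPM, a log2 ratio of -1.40 (-1.46 to -1.35). In such a sum, fewer renin cells and less renin RNA per cell cannot be told apart.

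Podocyte-like cells had 34 Ren1 UMIs in 22 of 55 control cells, and 0 in 60 JPI-289 cells, a count that allows up to 5% of cells with a Ren1 UMI at a median depth of 1273.5 UMIs and sets no limit on cells expressing the gene. This signal rested on how the cells were grouped. At a coarser clustering 39 of the control cells moved to the stroma, and these held 32 of the 34 UMIs. They were shallow, with a median of 765 UMIs and 13.01% mitochondrial UMIs, and had 1 UMI of Nphs1, the gene of the slit diaphragm protein nephrin. The 13 control cells that remained podocyte-like had 17 UMIs of Nphs1 and 1 of Ren1.

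Agt encodes angiotensinogen, the precursor of all angiotensins (ENSMUSG00000031980, chromosome 8, 124556534 to 124569706). Of its 160 control and 126 JPI-289 UMIs, PT-like cells held 81.9% and 74.6%. Their level was 16.1 (13.5 to 19.1) and 12.8 (10.4 to 15.7) CPM, a log2 ratio of -0.33 (-0.73 to 0.06), so no difference was detectable beyond counting error. The ratio was -0.78 with equal weight of each cell and 0.06 with at least 1000 UMIs per cell. Neutrophil-like cells stood at 4.60 (0.56 to 16.6) and 0.62 (0.016 to 3.45). No Agt UMI was found in stroma-like, distal convoluted and connecting tubule (DCT-CNT)-like or principal-like cells of either library.

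Agt also varied among the PT-like clusters. The control cluster with the highest late-tubule score was cluster 18. Its leading genes included the late marker Acy3, but also Slc22a6, an early marker, and Kap. It had 34.8 (26.2 to 45.3) CPM of Agt. Against this, cluster 5 had 13.7 (10.3 to 17.9) and cluster 14 had 20.6 (11.8 to 33.4), both led by early-tubule markers. The shallow cluster 1 had 3.22 (1.18 to 7.004). The interval of cluster 14 overlaps that of cluster 18. In the JPI-289 library, cluster 13, led by Kap and Cyp2e1, had 18.1 (12.9 to 24.8), cluster 8, led by fibrinogen genes and with the early-tubule gene Slc5a2 among its leading genes, had 15.1 (10.9 to 20.2), and the injured cluster 0 had 4.49 (2.15 to 8.26). Cluster 18 had the highest score for late-tubule markers of the PT-like clusters (2.02), but its score for early-tubule markers was 2.47. Cluster 13, called late-type here, had a late score of 1.22 and an early score of 0.66. Its late score was below the 1.37 of cluster 14, which is called early-type for its early score. Cluster 13 scored 2.97 for injured PT markers, and Krt20 and Havcr1 were among its leading genes. The split into early and late types is therefore a rough one. Cluster 14 had the highest early score (4.625, against 3.84 in cluster 5 and 2.35 in cluster 1), whereas cluster 8 had only 1.42 and was led by injured PT markers. The late-type cluster of the JPI-289 library was lower than that of the control library, while cluster 8 overlapped both early-type control clusters. Agt was also counted in the unnamed cluster 20, led by the urea transporter gene Slc14a2 and by Bst1, at 35.3 (21.8 to 53.9) and 30.7 (16.8 to 51.5) CPM.

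Ace encodes angiotensin-converting enzyme, which makes angiotensin II and degrades bradykinin (ENSMUSG00000020681, chromosome 11, 105967945 to 105989964). It had 157 and 147 UMIs in all cells, most of them in PT-like and EC-like cells. In PT-like cells it had 11.8 (9.57 to 14.4) and 10.6 (8.40 to 13.3) CPM, a log2 ratio of -0.15 (-0.60 to 0.29). EC-like cells stood at 14.8 (9.90 to 21.2) and 13.4 (8.51 to 20.2), a log2 ratio of -0.13 (-0.99 to 0.70). Neither ratio lay beyond counting error, though the EC-like interval still includes values close to a 2-fold difference in either direction.

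Ace was uneven among the clusters of each class. Among PT-like cells it stood at 47.5 (37.3 to 59.5) CPM in the late-type control cluster 18 and at 31.6 (24.5 to 40.04) in the JPI-289 cluster 13, whereas the early-type control clusters 5 and 14 had 3.10 (1.60 to 5.42) and 6.43 (2.09 to 15.01) and the JPI-289 cluster 8 had 1.03 (0.21 to 3.001). The 2 late-type clusters alone held 75 of 96 Ace UMIs of the class in the control and 68 of 78 in JPI-289. Late-type is the rough label described above, and a link of Ace to the tubule segment was not tested. The unnamed cluster 15, led by the myeloid genes Lyz2 and Fn1, also held 16 and 13 Ace UMIs. Among EC-like cells, cluster 12, led by Plvap, a gene of fenestrated and venous endothelium, had 22.4 (14.5 to 33.0) CPM over 201 control cells and 40.7 (21.7 to 69.6) over 33 JPI-289 cells. Cluster 17, with 183 JPI-289 cells and led by Igfbp3 and Plat, had 1 Ace UMI. Mural-like cells had 0 and 5 Ace UMIs, 3 of which were in 1 cell with 15 UMIs of the endothelial gene Pecam1.

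Agtr1a encodes the main type 1 angiotensin II receptor of mice (ENSMUSG00000049115, chromosome 13, 30336441 to 30382867). It had 220 and 61 UMIs in all cells, divided between PT-like and stroma-like cells. Fibroblast-like cells had the highest level, 174 (134 to 222) CPM over 39 control cells with 64 UMIs, against 23.8 (2.88 to 85.8) over 13 JPI-289 cells with 2 UMIs, a log2 ratio of -2.56 (-5.95 to -0.96). Other markers moved with it. Summed fibroblast markers of these cells were 10988.5 and 5951 CPM, with 0 of 6 at 0. Their summed mural markers were 14209 and 2981, with 1 and 3 of 8 at 0, and their endothelial markers 1168 and 107, with 0 and 4 of 8 at 0. The part of these in the Agtr1a value was not tested. Mural-like cells had 121 (72.8 to 189) and 52.3 (19.2 to 114), with 19 and 6 UMIs and a log2 ratio of -1.13 (-2.82 to 0.17), which did not lie beyond counting error and ranged from -2.42 to -0.56 over the alternatives. In PT-like cells the level was 13.2 (10.8 to 15.9) and 5.18 (3.67 to 7.11), a log2 ratio of -1.33 (-1.92 to -0.80).

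The lower Agtr1a of the JPI-289 library appeared in each of these classes by its value. Over stroma-like cells as a whole the log2 ratio was -1.92 (-3.03 to -1.07), but with equal weight of each cell it was -0.11. Fibroblast-like cells were 39 of 160 and 13 of 100 stroma-like cells, and the part of this mix was not tested. Over all barcodes, where fewer cells and less RNA per cell cannot be told apart, the Agtr1a ratio was -1.89 (-2.20 to -1.60), with 481 and 120 UMIs. Among PT-like clusters, control cluster 5 had 16.8 (12.96 to 21.4) CPM, cluster 14 had 11.6 (5.29 to 21.97) and cluster 1 had 7.51 (4.10 to 12.6). Of these, cluster 5 alone lay beyond the interval of the JPI-289 cluster 8, at 4.11 (2.12 to 7.17). The late-type clusters 18 and 13 had 12.0 (7.24 to 18.8) and 5.57 (2.88 to 9.74), whose intervals overlap. The thinned share of PT-like cells with an Agtr1a UMI was 1.49% (0.91 to 2.29%) and 0.26% (0.054 to 0.77%), or 5.34% and 2.18% unthinned, and that of neutrophil-like cells was 0.56% (0.014 to 3.11%) and 0%, where 582 cells were counted in JPI-289. The JPI-289 level of PT-like cells, 5.18, lay within the range of neutrophil-like cells, 1.86 (0.38 to 5.42).

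Agtr1b, the second type 1 receptor gene of mice (ENSMUSG00000054988, chromosome 3, 20314473 to 20367177), had 2 and 1 UMIs in all cells. All 3 were in mural-like cells. At this depth no comparison between the libraries is possible.

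Enpep encodes aminopeptidase A, which removes the first residue of angiotensin II (ENSMUSG00000028024, chromosome 3, 129269175 to 129332720). It had 730 and 278 UMIs in all cells. PT-like cells had 65.2 (59.8 to 71.0) and 13.6 (11.1 to 16.6) CPM, a log2 ratio of -2.25 (-2.58 to -1.95). It lay between -2.367 and -2.001 in all 16 alternatives tried.

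Enpep was uneven among the control PT-like clusters. It stood at 77.0 (68.5 to 86.3) CPM in cluster 5, 106.7 (85.02 to 132) in cluster 14 and 67.7 (55.5 to 81.8) in cluster 18, but at 21.5 (15.3 to 29.2) in the shallow cluster 1, which held 811 of the 1799 control cells. The JPI-289 clusters had 14.4 (10.4 to 19.4) in cluster 8, 19.97 (14.5 to 26.9) in cluster 13 and 6.29 (3.44 to 10.5) in cluster 0. Clusters 5, 14 and 18 lay above all 3 of these, whereas cluster 1 overlapped clusters 8 and 13. The thinned share of PT-like cells with an Enpep UMI was 6.24% (5.01 to 7.67%) and 1.49% (0.87 to 2.38%), and 19.5% and 5.08% without thinning. Neutrophil-like cells, thinned alike, had 0.56% (0.014 to 3.11%) and 1.20% (0.48 to 2.46%), at median depths of 2080 and 2198 UMIs against 3461.5 and 3431 in the thinned PT-like cells. The thinned JPI-289 share of PT-like cells could therefore not be told from that of neutrophil-like cells. How much of the JPI-289 value is background was not tested. Free RNA held 74.8 (51.5 to 105) and 34.9 (18.04 to 61.0) CPM of Enpep. The summed injured PT markers of the PT-like cells moved with the library as well, from 890 to 9080 CPM, and the summed PT markers from 15939 to 12403, and their part in the Enpep value was not tested.

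**Figure D2:**
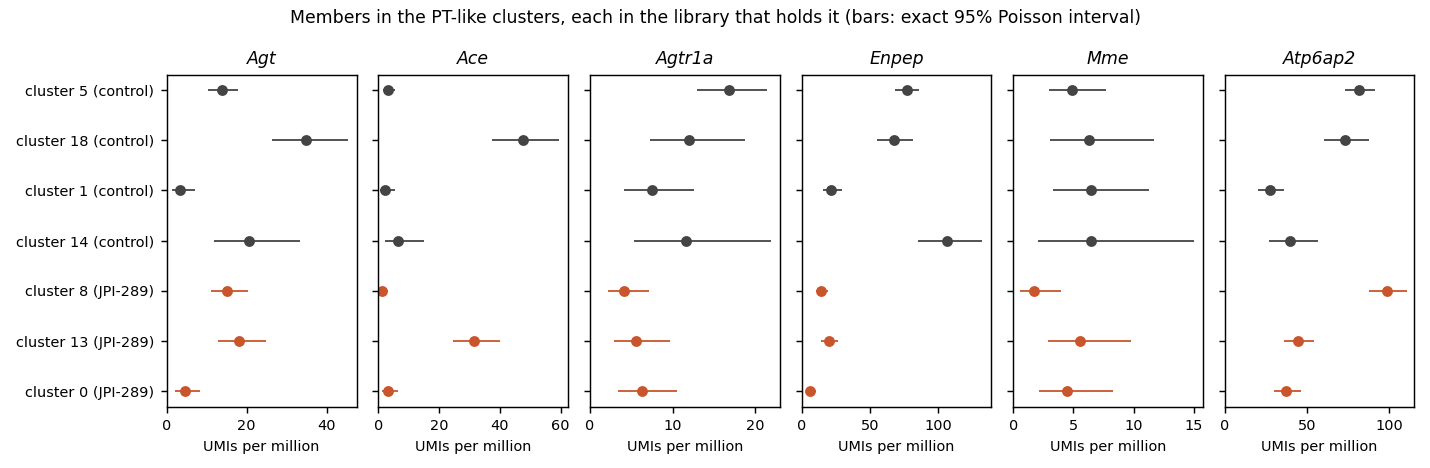
Level of 6 members, in CPM on linear axes from 0, in each PT-like cluster in the library that holds nearly all of it (4 control and 3 JPI-289 clusters). Points are single libraries and bars exact 95% Poisson intervals. Ace is high only in clusters 18 and 13, and Enpep of every JPI-289 cluster lies at or under 19.97.

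Podocyte-like cells had the highest Enpep level of any class in both libraries, 603 (450 to 790) and 475 (339 to 647) CPM, a log2 ratio of -0.34 (-0.98 to 0.28). Here the coarser clustering changed the value. The 13 control cells that stayed podocyte-like held 41 of the 52 UMIs, or 1614 CPM, against 522 in the 51 such JPI-289 cells. The ratio at that resolution was -1.63, and -1.52 with at least 1000 UMIs per cell. Summed podocyte markers were also higher in those 13 cells, at 7282 against 2296 CPM. Mural-like cells had 102 (58.2 to 165) and 166 (99.7 to 259) CPM of Enpep, a log2 ratio of 0.69 (-0.34 to 1.76). EC-like cells had 24.97 (18.5 to 33.0) and 11.7 (7.13 to 18.04), a log2 ratio of -1.08 (-1.93 to -0.32). Over the stroma-like cells the ratio was positive, 1.27 (0.38 to 2.18), on 22 and 24 UMIs, of which mural-like cells held 16 and 19. Mural-like cells were 30 of 160 and 34 of 100 stroma-like cells. The part of this mix in the ratio was not tested.

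Mme encodes neprilysin, which cleaves angiotensin I to angiotensin 1-7 and degrades natriuretic peptides (ENSMUSG00000027820, chromosome 3, 63241537 to 63386030). It had 191 and 129 UMIs in all cells, spread over several epithelial classes. Intercalated-like cells, the acid-base cells of the collecting duct, had 196 (140 to 267) and 82.5 (46.2 to 136) CPM, a log2 ratio of -1.22 (-2.21 to -0.36). Podocyte-like cells had 162 (88.7 to 272) and 107 (48.8 to 203), which overlap each other and the intercalated-like values of the same library. Here too the grouping mattered. At the coarser clustering the 13 control cells that stayed podocyte-like had 11 Mme UMIs, or 433 CPM, against 117 in the 51 such JPI-289 cells. The podocyte-like log2 ratio was -0.58 (-1.99 to 0.71) and reached -1.87 over the alternatives. Thick ascending limb (TAL)-like cells had 40.1 (28.1 to 55.5) and 16.3 (9.98 to 25.2), a log2 ratio of -1.28 (-2.16 to -0.47). Principal-like cells had 15.3 (8.55 to 25.2) and 16.2 (10.2 to 24.6), a log2 ratio of 0.07 (-0.93 to 1.14) that moved to -1.30 with the first step of cell calling alone and to -0.95 at resolution 0.5. PT-like cells had 5.66 (4.14 to 7.55) and 3.82 (2.54 to 5.52), a log2 ratio of -0.56 (-1.30 to 0.14), and free RNA had more, 24.9 (12.5 to 44.6) and 8.73 (1.80 to 25.5).

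Atp6ap2 encodes the (pro)renin receptor, which is also an accessory protein of the vacuolar proton pump (ENSMUSG00000031007, chromosome X, 12587801 to 12617049). It was found in most classes, with 1451 and 1623 UMIs in all cells. Intercalated-like cells, which are rich in the proton pump, had the highest level, 417 (333 to 516) and 599 (492 to 723) CPM, a log2 ratio of 0.52 (0.10 to 0.95). Macrophage-like cells had 210 (173 to 252) and 172 (138 to 211). Neutrophil-like cells had 140 (107 to 180) and 142 (124 to 162) and principal-like cells 138 (116 to 164) and 141 (122 to 162), which overlap. TAL-like cells were among the lowest, with 44.5 (31.8 to 60.7) and 44.1 (33.1 to 57.6).

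The ratio of Atp6ap2 was near 0 in most classes. It was 0.02 (-0.17 to 0.20) in PT-like, -0.02 (-0.34 to 0.28) in EC-like, 0.01 (-0.39 to 0.45) in neutrophil-like and 0.02 (-0.30 to 0.35) in principal-like cells. DCT-CNT-like cells were the exception on the low side, with 80.3 (59.2 to 107) and 39.7 (26.4 to 57.4) CPM and a log2 ratio of -1.01 (-1.74 to -0.32).

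**Figure D3:**
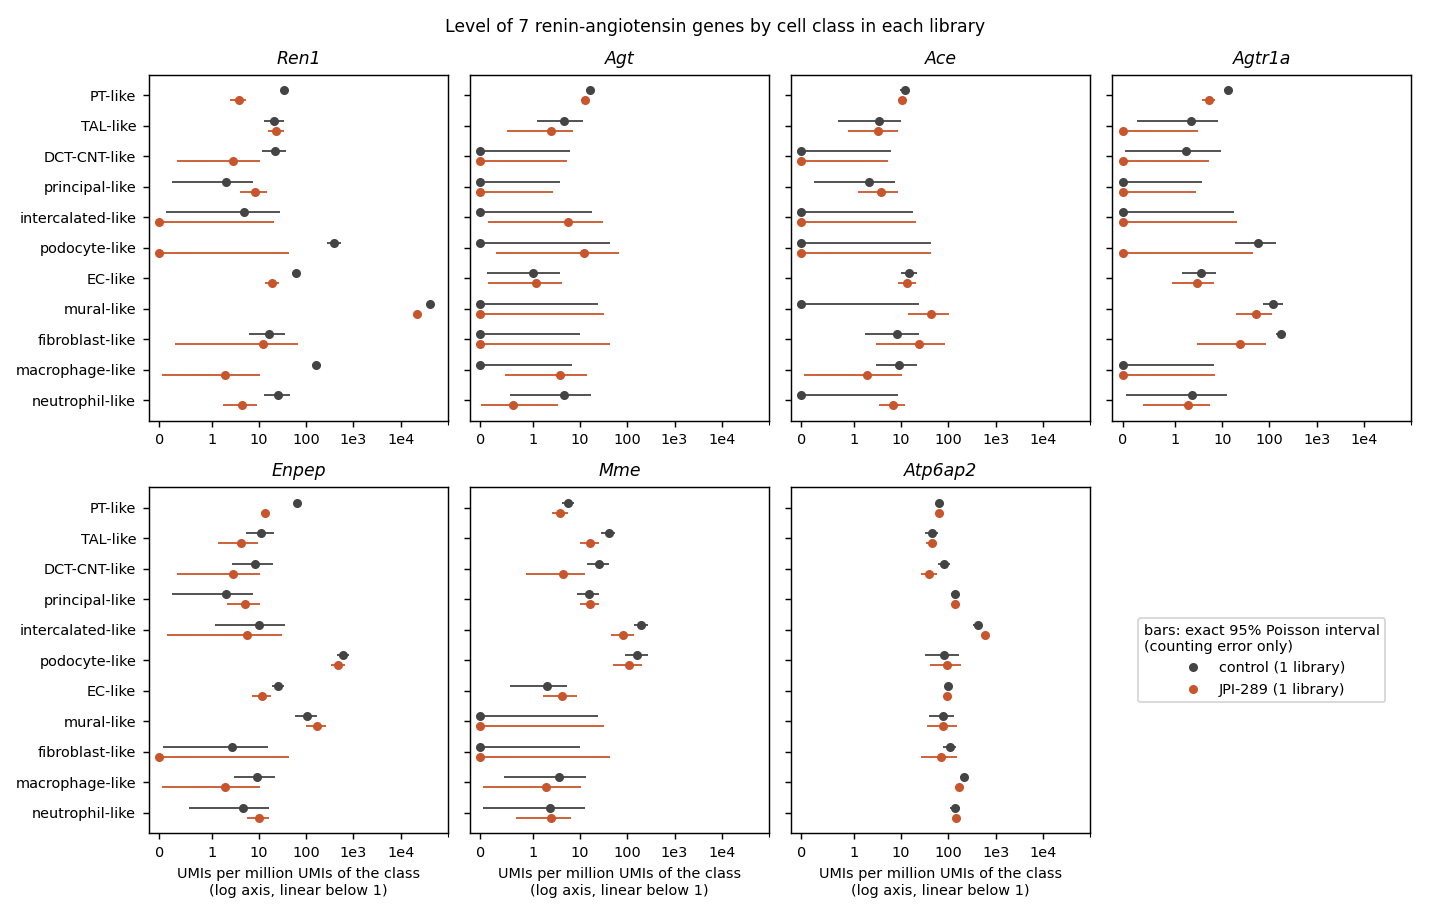
Level of 7 members in 11 cell classes, in CPM (log axis, linear below 1), for each library by its colour. Points are single libraries and bars exact 95% Poisson intervals. Ren1 in mural-like cells stands at 42029 and 22494, Enpep peaks in podocyte-like cells, and Atp6ap2 stays between 39.7 and 599 in every class drawn.

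The members were then set against all genes measured in the same class. Of the 8 members, 7 had at least 20 UMIs over both libraries. Of these, 3 (Ren1, Agtr1a and Enpep) were at least 2-fold lower in the JPI-289 library and 0 at least 2-fold higher, while 23.6% of the 11315 genes measured in PT-like cells were at least 2-fold lower and 9.13% higher. The median log2 ratio of the 7 was -0.56, against -0.20 over all genes, and relative to all genes Enpep was at -2.06, Agtr1a at -1.14 and Atp6ap2 at 0.21. Ren1 counts here although its PT-like level lay within the range of neutrophil-like cells. In EC-like cells 4 members were measured and 2 (Ren1 and Enpep) were at least 2-fold lower, against 18.5% of 9712 genes, whose median was -0.17. Without EC-like cells of 20 or more Ren1 UMIs 1 of them remained. No member (0 of 4) was at least 2-fold higher there, against 5.25%.

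The other classes held fewer measured members. In mural-like cells 1 of 4 (Agtr1a) was at least 2-fold lower and 0 were higher, against 11.4% and 11% of all genes measured. In fibroblast-like cells it was 1 of 2 (Agtr1a) and 0, against 16.2% and 10%, and over all stroma-like cells 1 of 4 lower (Agtr1a) and 1 higher (Enpep), against 14% and 11.6%. In TAL-like cells 1 of 3 (Mme) was lower and 0 higher, against 11.1% and 7.96%, and in intercalated-like cells 1 of 2 (Mme) and 0, against 8.69% and 13.5%. Of DCT-CNT-like cells the 1 measured member, Atp6ap2, was lower, against 10.8%, while 7.97% of genes were higher. In podocyte-like cells 1 of 3 (Ren1) was lower and 0 higher, against 20.6% and 23.6%, and in macrophage-like cells 1 of 2 (Ren1) and 0, against 17.2% and 10.7%. In principal-like cells 0 of 2 passed the fold, against 13.9% lower and 8.86% higher. Several of these calls were lost under at least 1 alternative: the value nearest 0 was -0.86 for Agtr1a in PT-like cells, -0.56 for Agtr1a in mural-like cells, -0.11 for Agtr1a in stroma-like cells, -0.51 for Mme in intercalated-like cells, -0.47 for Atp6ap2 in DCT-CNT-like cells, -0.50 for Enpep and -0.39 for Ren1 in EC-like cells, and 0.29 for Enpep in stroma-like cells. With so few members, these shares describe the members and set none of the classes apart.

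**Figure D4:**
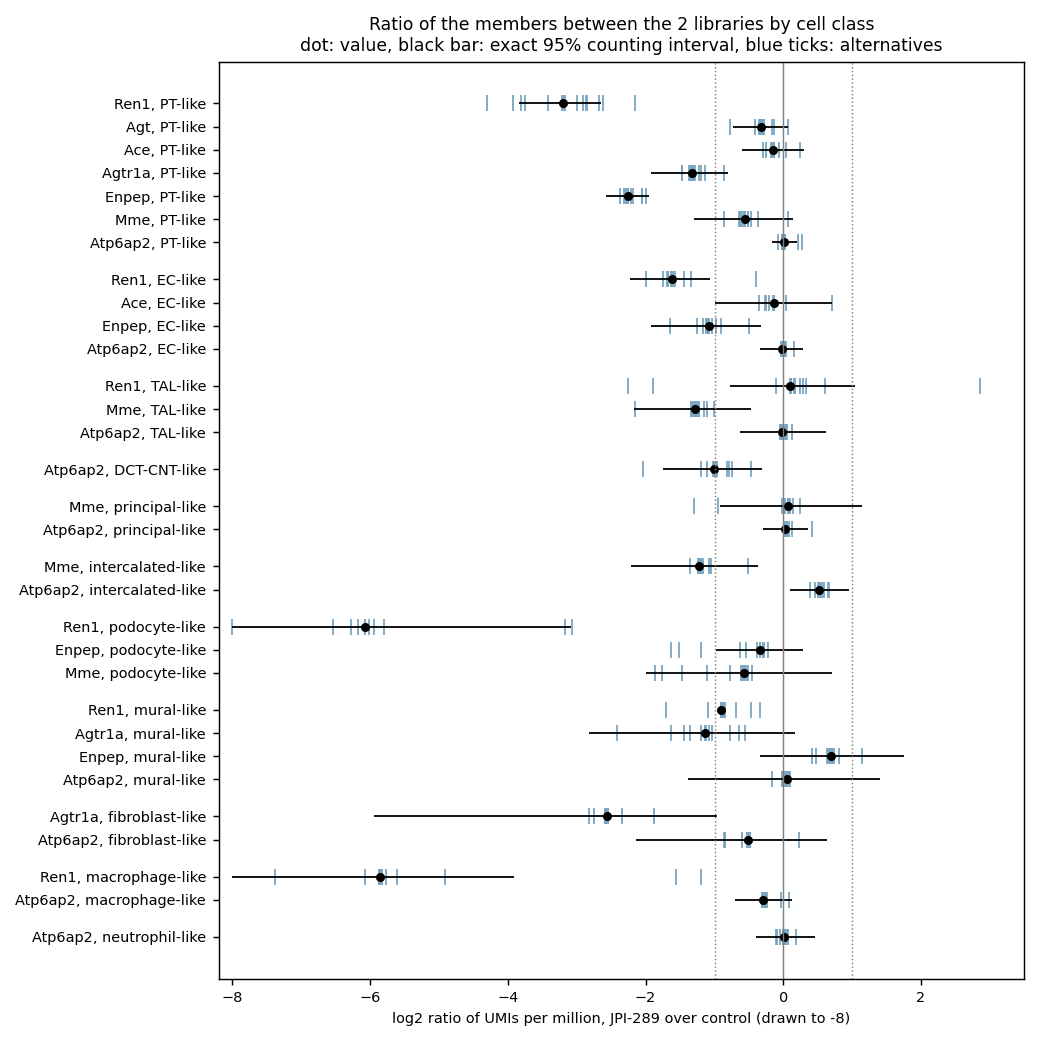
Log2 ratio of JPI-289 over control for each member and class with at least 20 UMIs, drawn down to -8. Dots are the values, black bars exact 95% counting intervals, blue ticks the values under the alternatives, and dotted lines mark a 2-fold difference. Enpep in PT-like cells keeps between -2.367 and -2.001, whereas Ren1 in mural-like cells ranges from -1.71 to -0.34.

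Of 17 further genes of the pathway, 9 were measured in PT-like cells, of which 2 were at least 2-fold lower and 0 higher, against 23.6% and 9.13% of all genes measured there, so the share lower was near the background. Their median log2 ratio was -0.55, against -0.20. Anpep, which encodes aminopeptidase N and acts on the peptide that aminopeptidase A produces, had 485 and 41 UMIs in PT-like cells, a log2 ratio of -3.40 (-3.91 to -2.96). Prcp, a carboxypeptidase that forms angiotensin 1-7, had 405 and 148, a log2 ratio of -1.30 (-1.59 to -1.03). Nln, the peptidase neurolysin, went the other way by its value, with 240 and 375 and 0.79 (0.55 to 1.03). Among the genes of this list with most UMIs, Klk1, tissue kallikrein, had 20851 and 19517 UMIs over all cells, a log2 ratio of -0.19 (-0.22 to -0.16). Values over all cells also move with the share of each class, and those of Klk1 by class differed in sign. They were -3.43 (-3.53 to -3.33) in TAL-like cells, with 7239 and 916 UMIs, and -2.60 (-2.77 to -2.44) in intercalated-like cells. In DCT-CNT-like cells, for which Klk1 was one of the defining markers, the value was 0.97 (0.93 to 1.01), with 5931 and 13713. Lnpep, the angiotensin IV binding aminopeptidase, had 1343 and 1839 over all cells and 0.36 (0.25 to 0.46), but -0.51 (-0.75 to -0.27) in PT-like cells. Neutrophil-like cells, with 214 and 246 CPM of Lnpep, numbered 196 and 654, and their part in the value over all cells was not tested. Over all cells Ctsa, cathepsin A, 1886 and 1465 and -0.46 (-0.56 to -0.36). Of the 17, 7 were measured in EC-like cells and only Ctsa passed the fold, against 18.5% lower and 5.25% higher of all genes, with 159 and 68 UMIs and -1.02 (-1.46 to -0.61). Mas1, the receptor of angiotensin 1-7, had 7 and 1 UMIs, and Agtr2, Cma1, Cma2, Mcpt4, Cpa3 and Mrgprd had 0 in both.

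Of 5 further peptidases and receptor partners, 3 were measured in PT-like cells and 0 passed the fold, against 23.6% lower and 9.13% higher of all genes. In EC-like cells 2 of 3 were at least 2-fold lower, against 18.5%. These were Agtrap, which encodes a protein that binds the type 1 receptor, with 88 and 26 UMIs and a log2 ratio of -1.54 (-2.25 to -0.92), and Rnpep, aminopeptidase B, with 91 and 26 and -1.59 (-2.30 to -0.97). The EC-like clusters differed between the libraries, as given above, and the part of this mix was not tested. The lower Rnpep was not particular to EC-like cells. It was -0.98 (-1.37 to -0.60) in PT-like and -1.95 (-2.81 to -1.22) in macrophage-like cells. In intercalated-like cells it was 0.16 (-1.34 to 1.67), on only 9 and 9 UMIs. Over all cells it was -1.07 (-1.26 to -0.89). Agtrap was -0.60 (-0.91 to -0.31) in PT-like cells. Dpp3, a dipeptidyl peptidase that degrades angiotensin II, had 538 and 640 UMIs over all cells, a log2 ratio of 0.15 (-0.01 to 0.32). In PT-like cells it had 235 and 336, with 0.66 (0.42 to 0.91), and in EC-like cells 55 and 43, with -0.16 (-0.77 to 0.44). Bdkrb2, the bradykinin B2 receptor, had 25 and 4 over all cells, a log2 ratio of -2.60 (-4.72 to -1.21).

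Of 7 genes of the aldosterone arm, all were measured in principal-like cells, where aldosterone acts. Of these, 3 were at least 2-fold lower and 1 higher, against 13.9% and 8.86% of 8384 genes. Hsd11b2, which protects the mineralocorticoid receptor from glucocorticoids and was also one of the markers that defined these cells, had 1359 and 254 CPM, a log2 ratio of -2.42 (-2.59 to -2.25). Nr3c2, the mineralocorticoid receptor, stood at 31.6 and 7.37, with -2.05 (-3.29 to -1.03). Scnn1g, a sodium channel subunit and likewise a marker, stood at 144 and 44.2, a log2 ratio of -1.69 (-2.16 to -1.25). Sgk1, a kinase induced by aldosterone and by stress, was higher, with 176 and 408, a log2 ratio of 1.21 (0.96 to 1.47). The median depth of these cells was 9305 and 1541 UMIs, and the part of depth was not tested. In PT-like cells 2 of 5 were at least 2-fold lower, against 23.6%, both on few UMIs: Nr3c2 with 20 and 1 and Hsd11b2 with 41 and 5. In EC-like cells 1 of 4 was, against 18.5%, again Hsd11b2, with 28 and 1. Over all cells Scnn1a, another subunit of the channel, had 714 and 1365 UMIs, a log2 ratio of 0.84 (0.71 to 0.97), and Tsc22d3, a corticosteroid-induced gene, 1624 and 2711, a log2 ratio of 0.64 (0.55 to 0.73). By class, Tsc22d3 differed in sign. It was -0.49 (-0.73 to -0.25) in PT-like and -0.29 in neutrophil-like cells, but 0.45 in EC-like and 2.21 in TAL-like cells. Neutrophil-like cells, with 418 and 344 CPM of Tsc22d3, numbered 196 and 654. Lymphocyte-like cells, with 945 and 1197 CPM, numbered 6 and 98. The part of the class mix in these values over all cells was not tested.

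Of 10 genes known from renin cells, 4 were measured in mural-like cells, of which Akr1b7 was at least 2-fold higher and Gja4, a connexin, at least 2-fold lower, with 52 and 11 UMIs and a log2 ratio of -1.74 (-2.88 to -0.83), against 11% higher and 11.4% lower of all genes. The Akr1b7 ratio rested on few JPI-289 cells, as given above. Mef2c, a transcription factor, had 47 and 44, a log2 ratio of 0.36 (-0.27 to 0.98). Of the 10, 6 were measured in EC-like cells, 2 of them at least 2-fold higher and 1 lower, against 5.25% and 18.5%. Gja4 had 90 and 207 UMIs there, a log2 ratio of 1.39 (1.03 to 1.77), Gja5, the connexin that joins renin cells to their neighbours, 27 and 6, a log2 ratio of -1.88 (-3.54 to -0.67), and Akr1b7 6 and 22, a log2 ratio of 1.99 (0.72 to 3.66). Of the 6 control Akr1b7 UMIs, 5 lay in 1 cell with 27 Ren1 UMIs. Akr1b7 also had 2 and 16 UMIs in PT-like, 0 and 17 in principal-like and 2 and 0 in podocyte-like cells, all under 20 UMIs over both libraries. The part of leaked RNA in these values was not tested. In PT-like cells 1 of the 3 genes measured was at least 2-fold lower, against 23.6%, namely Gucy1a1, a guanylate cyclase subunit, which had 59 and 2 UMIs, a log2 ratio of -4.43 (-7.81 to -2.82). Summed mural markers of the PT-like cells were 30.9 and 7.22 CPM, with none of the 8 markers at 0 in either library, and their part was not tested. Creb1 and Gja1 had 763 and 415 UMIs over both libraries.

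Each member was last compared with 10214 genes by the profile of its level over 29 pairs of library and class, the stroma split into its parts, that held at least 50000 UMIs. Pearson's r is given as a description, since pairs of 1 library share depth and free RNA. The 5 genes most like Ren1 were Mustn1, Pcp4l1, Cspg4, Rgs5 and Myh11, with r from 0.94 to 0.92, of which Cspg4, Rgs5 and Myh11 are pericyte or smooth muscle genes and were among the markers that named the mural-like class. For Atp6ap2, Atp6v0c, Atp6ap1 and Atp6v0b led, with r from 0.82 to 0.79, and all 3 encode parts of the vacuolar proton pump. Those most like Agtr1a were Rarres2, Palld, Des, Myl9 and Ikbip (0.93 to 0.87), and those most like Agt were Ugt2b37, Sp5, Ttr, Aspdh and Cyp2d26 (0.86 to 0.78). Enpep was most like Sema3g (0.88), Mme like Ankrd1 (0.85) and Ace like Kctd17, at only 0.72. Among the members themselves, the highest r was 0.63, between Ren1 and Agtr1a.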

How the data were processed

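Per gene and droplet barcode, the authors deposited unnormalized UMI counts, made from 10x Genomics 5′ libraries with, per the submitters' processing notes, Cell Ranger 5.0.1 and mm10. In total there were 38328760 UMIs for the control and 35548396 for JPI-289. All later steps were computed here. Cells were called by total UMIs and then, from 500 UMIs, by how far they differed from empty droplets (false discovery rate 0.01), giving 4296 and 5435 cells, of which 546 and 395 with over 50% mitochondrial UMIs were removed. Leiden clustering (resolution 1, 2000 variable genes without the 8 members, 30 components) used scanpy 1.11.5 with no correction between libraries. Unnamed clusters held 171 and 492 cells. UMIs were summed per class. Genes needed 20 UMIs over both libraries to count as measured, and a few ratios of genes below this are also given. Ratios had 0.5 UMIs added. The members, gene lists and marker lists were chosen with earlier results of these data known. The text names all members and, of each list, the 4 genes with most UMIs and those past 2-fold in PT-like or EC-like cells; other genes named in mural-like and principal-like cells or beside a member were chosen after their values were seen. Values of some genes are not reported here. Symbols matched the GENCODE vM21 identifiers for 8 of 8 members, and RefSeq promoter sequences were found for 7. The ratio and interval steps were tested on simulated counts. Python 3.11.15, numpy 2.4.6 and scipy 1.17.1 were used.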

Additional observations from a re-analysis of the deposited data

Results flagged for a closer look

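Atp6ap2, the (pro)renin receptor, had log2 ratios of opposite sign in neighbouring classes of the distal nephron. It was 0.52 (0.10 to 0.95) in intercalated-like cells, with 85 control and 109 JPI-289 UMIs, and -1.01 (-1.74 to -0.32) in DCT-CNT-like cells, with 48 and 28. Neither counting interval includes 0. With 1 library per condition the difference between the classes was not tested. Over the alternatives the first value ranged from 0.39 to 0.66 and the second from -2.04 to -0.47.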

How the results depend on the processing

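No paired analysis was possible because each condition had 1 library, and for the same reason no replicate was left out. The alternatives changed cell calling, depth, mitochondrial and doublet limits, clustering, free RNA, scaling and single cells. Of them, 4 were chosen after the data had been seen, namely the 2 that leave out the cells with most Ren1, the one that leaves out Ren1-rich cells outside the stroma, and free RNA taken from the next larger barcodes, of 100 UMIs and up. A ratio or share was taken as unchanged if it stayed within the counting interval of its main value. Counts of genes, which made up many of the main results, were judged by a fixed fold limit and not by counting error. By these rules 216 of 238 values for the main results and 451 of 492 for the others were unchanged, and 0 called values changed sign. The cause of the changes in the remaining values was not tested. Ratios on few UMIs have wide intervals and meet the rule easily, so these totals do not measure stability. Agtr1a in mural-like cells was unchanged in 16 of 16 alternatives, yet ranged from -2.42 to -0.56.

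For Ren1 in mural-like cells the log2 ratio was -0.34 with the first step of cell calling alone, -0.68 without the 5% highest doublet scores, -1.71 with equal weight of each cell, -1.10 without the top cell and -0.48 without the top 3. The share of control Ren1 UMIs in stroma-like cells (91.6%) was 94.3% with the first step alone, 94.3% with at least 1000 UMIs per cell, 93.2% with at most 20% mitochondrial UMIs, 93.1% without the highest doublet scores, 92.9% at resolution 2 and 92.9% with the members among the clustering genes. That of JPI-289 (94.7%) was 96.5% with the first step alone and 95.6% with at least 1000 UMIs. Atp6ap2 in PT-like cells was 0.27 with at least 1000 UMIs and 0.21 relative to all genes, and Agtr1a in stroma-like cells -0.11 with equal weight of each cell. The 17 further pathway genes and the 5 further peptidases and receptor partners were counted jointly in the alternatives. Of these genes, 4 instead of 2 were at least 2-fold lower in PT-like cells with at least 1000 UMIs. Of the members, 1 instead of 2 was at least 2-fold lower in EC-like cells with the first step alone, with at least 1000 UMIs per cell, without Ren1-rich cells outside the stroma, relative to all genes, and among genes with at least 100 UMIs.

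Depth limits Agtr1b, with 3 UMIs in all cells, and the 6 pathway genes with 0.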
